A study of Mus musculus and Acomys cahirinus with 84 samples.

Results

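The 58 genes described here encode matrix glycoproteins, proteoglycans and elastic fibre proteins, with the enzymes that cross-link the fibres. They were taken from a list of symbols, and all 58 of 58 were found in both count tables, which held 56980 mouse genes and 19818 gene names of Acomys cahirinus, the African spiny mouse. By role they were 15 adhesive and matricellular glycoproteins, 9 small leucine-rich proteoglycans, 5 hyalectans and hyaluronan synthases, 14 elastic fibre and microfibril proteins, 5 lysyl oxidases, 4 latent TGF-beta binding proteins and 6 laminins and nidogens of the basement membrane. In a single library the 58 genes together held 2.63 to 12.1% of all counts.

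Skin fibroblasts build the dermal matrix. Collagen fibrils are spaced by small leucine-rich proteoglycans, short core proteins with leucine-rich repeats and often a sugar chain, while hyalectans such as versican bind hyaluronan, a long sugar polymer made at the cell surface. Elastic fibres form when elastin is laid on microfibrils of fibrillin with the help of fibulins, and lysyl oxidases then cross-link both elastin and collagen; latent TGF-beta binding proteins hold the growth factor TGF-beta in the same network.

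The cells were primary fibroblasts from skin, with polyA RNA made into stranded mRNA libraries. They came from C56BL6 mice (spelled as the labels have it), from wild mice and from A. cahirinus, and the labels give no transgene, age or sex. Each of the 3 populations had 7 groups of 4 libraries: untreated, 10 Gy or 20 Gy collected at 24 h, the same treatments collected at 12 d, and a further 12 d group labelled untreated passaged, 84 libraries in all. The labels put the 24 h libraries in 1 batch and the 12 d libraries in another, which cannot be told apart from time, and tests were made within a time point.

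Library totals ran from 26.65 to 39.82 M counts for C56BL6, from 17.42 to 35.98 M for wild mouse cells and from 25.55 to 52.86 M for A. cahirinus. Levels are given as counts per M of the library's total (CPM), always in the order of replicates 1 to 4, and 3 counts corresponded to between 0.057 and 0.172 CPM in these libraries, a limit that covers counting error only. A fold change is a log2 difference ± its standard error from the quasi-likelihood test of edgeR, and a gene is said to rise or fall where its p, adjusted by Benjamini-Hochberg over all genes tested, was under 0.05. A replicate number carries the same code in the library names in every group of a population, and same-numbered libraries deviated together, so a second fit with the replicate number as a block is given where it changes a call. The share of all genes that passed is given for the fits without and with the block only. Counts of members from any other fit or test have no such share beside them and are not read against the background. In bulk RNA, fewer cells of a type and less RNA per cell cannot be told apart.

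Some libraries stood apart. In C56BL6 mice, replicate 1 carried the keratinocyte genes Krt5 (62.01 to 428 CPM), Krt14 (134 to 434.6 CPM) and Dsp (49 to 96.4 CPM) in every group, against at most 1.22, 0.077 and 2.1 CPM in the other replicates. The rest of the keratinocyte list did not set it apart. Krt1 and Epcam were at most 0.143 CPM in all replicates. Krt10 (1.023 to 2.028 CPM in replicate 1), Trp63 (0.2125 to 3.704 CPM) and Cdh1 (0.2855 to 0.727 CPM) overlapped the other replicates. Replicate 1 was often the highest or lowest library for the matrix genes. The wild 24 h library of replicate 1 at 10 Gy detected 17843 genes, against 21846 to 22253 in the other 3 of its group, and gave the lowest share of counts to the 58 genes. Wild replicate 1 at 12 d went against its label: of 75 genes on in replicate 1 and off in replicate 4 in the 24 h libraries (at least 1 CPM against under 0.2 CPM throughout), 0 to 12 reached 0.5 CPM in its 12 d libraries, and of 62 genes with the opposite pattern 55 to 59 did. At 12 d, 0 genes were on in 1 of wild replicates 1 and 4 while off in its partner, where every other pair of wild replicates had 50 to 153 such genes, so wild 12 d results are also given with these replicates merged into 1, an alternative added after the data were seen. The 9 fibroblast genes summed to at least 9706 CPM in every library, while 6 endothelial genes reached at most 31.2 CPM and 6 immune genes at most 48.2 CPM. Other lists were not low: 6 smooth muscle and pericyte genes reached sums of 818.1 CPM in C56BL6 mice, 4366 CPM in wild mice and 1934 CPM in A. cahirinus. The 6 cartilage and bone genes reached 474.6, 592.8 and 255.7 CPM in that order. Whether cells of these types were present was not tested.

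Per kilobase of the exons counted, Thbs1, a matricellular thrombospondin, led the untreated 24 h cells of both mouse populations, with 3596 ± 1085 CPM per kb (SD, n = 4) in C56BL6 mice and 3677 ± 1154 in wild mice. It was followed in C56BL6 mice by Sparc, a calcium-binding matricellular protein, at 2000 ± 271, by the proteoglycan Bgn at 1004 ± 132, by Fbln2 at 854 ± 116 and by fibronectin, Fn1, at 659.8 ± 173. The ranges of 1 SD overlapped between Bgn and Fbln2, between Fbln2 and Fn1, and between Fn1 and Lox (606 ± 232), so the order of those neighbours was not resolved. In A. cahirinus the leading gene was Postn, periostin, at 3443 ± 311 CPM per kb, beside Thbs1 at 2768 ± 998 and Sparc at 2435 ± 240.3, and the range of Thbs1 overlapped both. Counts of the 2 species come from different annotations, so these levels were not tested against each other. At the low end, Vtn was at 0 in all 4 untreated 24 h libraries of C56BL6 mice and Fbln7 at 0 in those of A. cahirinus, and Eln, the elastin gene, reached only 0.0197 CPM there as a mean, below what 3 counts give. At 12 d the untreated C56BL6 cells still led with Thbs1 and Sparc (3018 ± 135 and 2246 ± 148 CPM per kb). In A. cahirinus Postn and Sparc had the highest means (3416 ± 454 and 3329 ± 379). Their ranges overlapped each other and those of Bgn (2763 ± 511.5) and Thbs1 (2217 ± 1188), so that order was not resolved.

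At 24 h after 20 Gy no member passed the test without the block in any population, with 53 members tested for C56BL6, 56 for wild mice and 52 for A. cahirinus. Over all genes 0.0895, 0.0 and 3.58% passed in that order of populations, and at an unadjusted p under 0.05 the members numbered 6, 2 and 6. With the replicate block, 8 members rose and 19 fell in C56BL6 mice (17.8% of all genes passed), 4 rose and 6 fell in wild mice (12.3%), and 16 rose and 5 fell in A. cahirinus (23.9%). DESeq2 called 2 lower in C56BL6 mice, 0 in wild mice and 2 higher in A. cahirinus.

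In C56BL6 mice the members that fell most at 24 h, Eln and Aspn, were low in level. Eln measured 3.33, 1.72, 2.03 and 2.58 CPM in untreated cells and 0.975, 0.361, 0.348 and 0.924 CPM 24 h after 20 Gy, lower in 4 of 4 replicates (log2 change with the block -1.91 ± 0.22, adjusted p = 6.24e-05). Aspn, asporin, a leucine-rich repeat protein that binds TGF-beta, went from 14.3, 2.62, 1.24 and 3.28 to 4.11, 0.752, 0.639 and 0.719 CPM (-1.76 ± 0.17, adjusted p = 2.03e-05 with the block). The irradiated values of Eln lay below all untreated ones, while those of Aspn overlapped because replicate 1 was highest in both groups. Decorin, Dcn, which binds collagen fibrils, went from 0.779, 26.4, 10.3 and 10.5 to 0.766, 8.27, 4.36 and 5.19 CPM with replicate 1 near 1 CPM in both groups (-1.27 ± 0.15, adjusted p = 9.02e-05 with the block). The highest rises in that fit were those of Ltbp2, a microfibril-associated latent TGF-beta binding protein, from 230.5, 623, 573 and 611 to 399, 769, 878 and 859.8 CPM (0.55 ± 0.07, adjusted p = 0.000124), and of the lysyl oxidase-like enzyme Loxl3 (0.48 ± 0.07, adjusted p = 0.000237).

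Ecm1 and Loxl3 were higher in all 4 pairs in each population at 24 h and passed with the block in each. Ecm1, a secreted glycoprotein of the dermis, measured 104, 138, 94.7 and 105 CPM in untreated A. cahirinus cells and 144, 223, 157 and 165 CPM after 20 Gy, with no overlap (log2 change with the block 0.66 ± 0.06, adjusted p = 3.38e-05). The same gene went from 262, 527, 190.3 and 523 to 374, 773, 379 and 875 CPM in wild mice (0.71 ± 0.09, adjusted p = 0.000828 with the block), where the groups overlapped. Loxl3 went there from 233, 294, 109 and 271 to 517, 532, 259 and 541 CPM (1.07 ± 0.08, adjusted p = 0.000107 with the block), while Tnn (-0.85 ± 0.22, adjusted p = 0.0301), at 0.775, 53.1, 0.16 and 34.4 and 1.23, 22.9, 0.172 and 16.4 CPM, and Podn (-0.91 ± 0.18, adjusted p = 0.00761), at 65.6, 20.9, 24.6 and 10.6 and 28.2, 7.68, 13.3 and 10.2 CPM, fell with the block. In A. cahirinus Loxl4 rose with the block as well, from 59.9, 38.3, 51.3 and 41.5 to 81.2, 54.1, 77.6 and 67.6 CPM (0.58 ± 0.06, adjusted p = 0.000131), while versican, Vcan, fell from 154, 97.8, 174 and 214 to 132, 70.5, 122 and 160.3 CPM (-0.38 ± 0.06, adjusted p = 0.00174) and Has2, the main hyaluronan synthase of fibroblasts, from 94.5, 67.8, 93.9 and 74.2 to 76.9, 50.1, 67.2 and 63.6 CPM (-0.34 ± 0.06, adjusted p = 0.00363). Of the 9 small leucine-rich proteoglycans, Dcn, Fmod, Ogn, Aspn and Prelp fell in C56BL6 mice with the block, whereas Podn, Dcn, Bgn and Prelp rose in A. cahirinus. Genes of dividing cells differed in the same A. cahirinus libraries: their summed level had a median of 1365 CPM in untreated cells and 428.4 CPM after 20 Gy. The medians were 891.8 and 570.9 CPM in wild mice and 1025 and 959.1 CPM in C56BL6 mice, and the libraries overlapped in both. In C56BL6 mice the sums ran from 779.9 to 1091 CPM untreated and from 921.1 to 1157 CPM after 20 Gy. The median log2 change of the 10 genes was 0.07 there and -0.69 in wild mice, and none passed without the block. With the block 1 rose and 1 fell in C56BL6 mice, and 0 rose and 6 fell in wild mice. The part of these genes in the results was not tested. At 10 Gy no member passed without the block (0.0, 0.0 and 3.88% of all genes, in the same order, with 7, 1 and 6 members at an unadjusted p under 0.05, and 1, 0 and 1 called by DESeq2). With the block 8 rose and 16 fell in C56BL6 mice (11.6%), 0 passed in wild mice (0.0%), and 22 rose and 5 fell in A. cahirinus (26.6%). The wild 10 Gy group holds the replicate 1 library described above, with fewer genes detected and the lowest member share. The blocked fit was not repeated without that library, so no lack of change at 10 Gy is read from the wild count.

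At 12 d after 20 Gy most members that passed had fallen in C56BL6 mice, and rises and falls were nearly balanced in A. cahirinus. In C56BL6 mice 2 of 57 members tested rose and 22 fell, 42.1% of the members; of all genes 26.7% passed, 11.9% upwards and 14.8% downwards, and the median log2 change was -0.66 for the members and -0.04 for all genes. With the replicate block 11 rose and 35 fell (47.7% of all genes passed). In A. cahirinus 6 of 56 rose and 8 fell, 25% of the members; of all genes 31.8% passed, 12.7% upwards and 19.1% downwards, and the members had a median of 0.01 (14 and 15 with the block, 49.6%). In wild mice only Podn passed, of 57 tested (0.0694% of all genes, 0.0278% upwards and 0.0417% downwards; DESeq2 called 5 members lower); with the block 1 rose and 17 fell (16.2%), and with replicates 1 and 4 merged no member passed without the block and 0 rose and 8 fell with it. The median of the wild members, -0.49, lay below that of all genes, -0.04.

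Of the 24 calls in C56BL6 mice, 10 held in each of the fits that left out 1 replicate number, those of Postn, Thbs3, Matn2, Ecm1, Ecm2, Podn, Eln, Emilin1, Mfap4 and Loxl1, and without replicate 3 the other 14 were lost. In A. cahirinus 6 of 14 held, those of Tnn, Thbs3, Vcan, Fbln2, Ltbp3 and Ltbp4, and 8 were lost without replicate 1. The 10 genes of dividing cells had a summed median of 102.5 CPM in untreated and 49.92 CPM in irradiated C56BL6 cells at 12 d, 120.7 and 79.27 CPM in wild mice, and 364 and 53.68 CPM in A. cahirinus. The 9 fibroblast genes summed to 19790 to 24720 CPM in untreated C56BL6 cells and to 11050 to 11880 CPM after 20 Gy, and the 4 adipocyte genes to 4.833 to 21.58 CPM and 0.457 to 1.25 CPM, none of them at 0 in all 4 libraries. The 6 smooth muscle and pericyte genes summed to 246 to 360 CPM in untreated and 363.3 to 538.3 CPM in irradiated C56BL6 cells. In A. cahirinus the fibroblast genes summed to 25660 to 29310 CPM untreated and 16420 to 23720 CPM after 20 Gy, the 8 keratinocyte genes to 15.83 to 19.83 and 21.29 to 24.46 CPM, the endothelial genes to 0.586 to 1.904 and 2.794 to 4.828 CPM (Cldn5 at 0 in the untreated cells), and the 5 immune genes in its table to 1.242 to 2.227 and 2.875 to 5.482 CPM (Cd3e at 0 in both). A sum mostly follows its most abundant genes, and the lower fibroblast sums do not show a fall of the whole list. Of the 9 fibroblast genes, 1 rose and 3 fell in C56BL6 mice without the block, with a median log2 change of -0.23. In A. cahirinus 1 rose and 1 fell, with a median of -0.16. With the block 1 rose and 4 fell in C56BL6 mice, and 2 rose and 3 fell in A. cahirinus. The part of the differences in these marker sums in the results below was not tested.

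**Figure D1:**
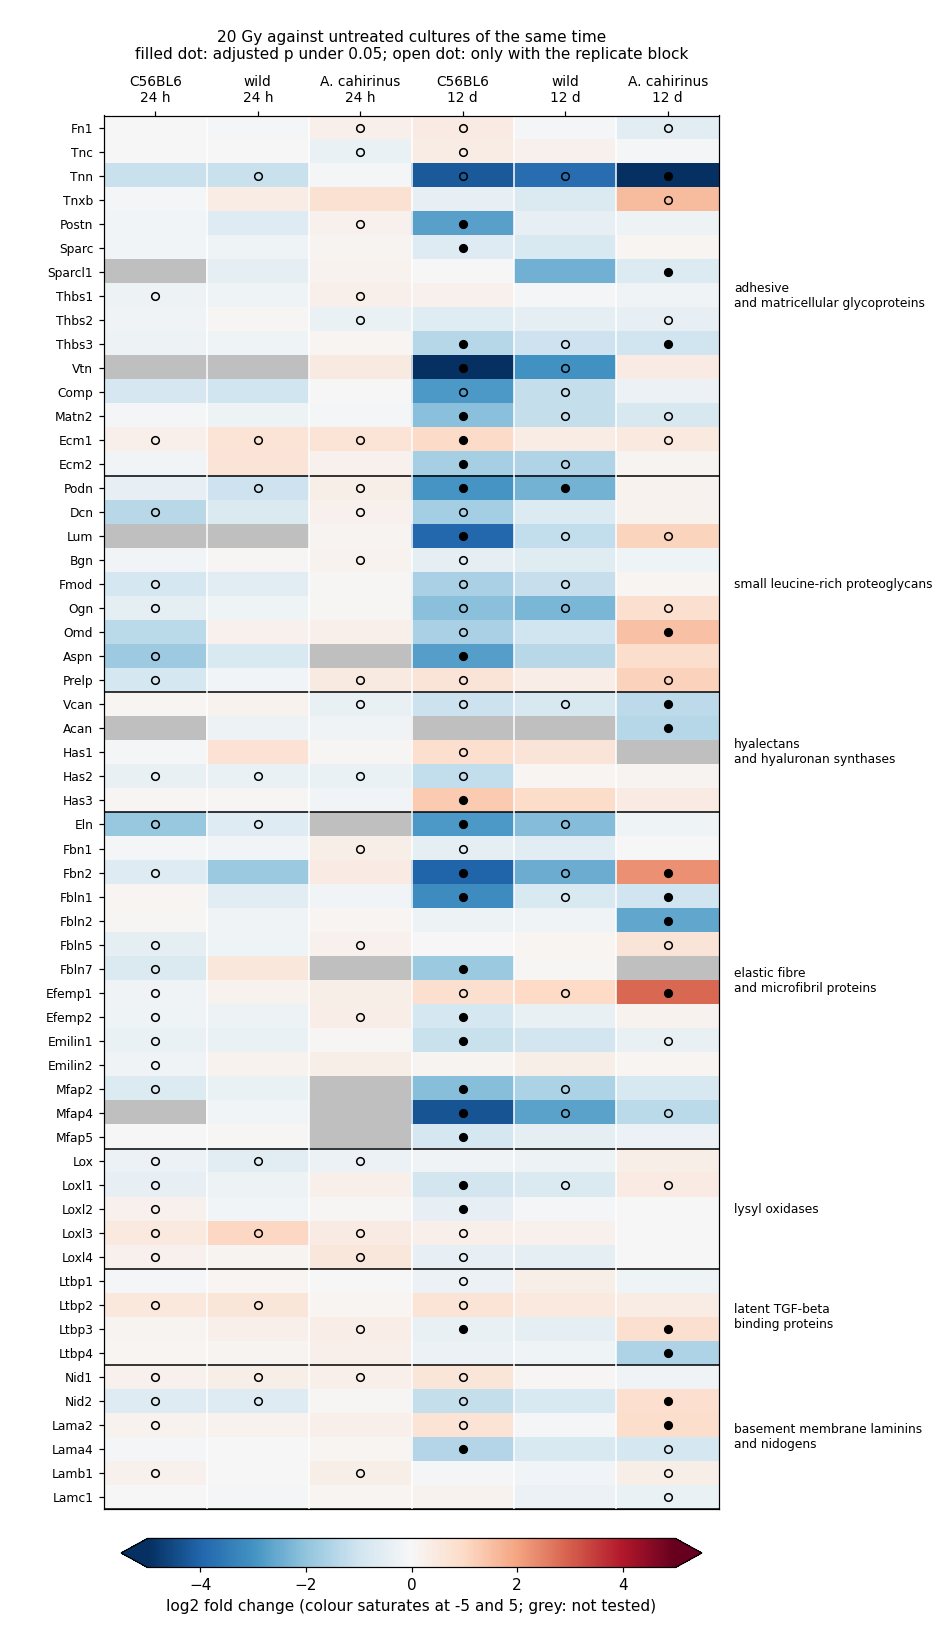
Log2 change at 20 Gy against untreated cells for each of the 58 genes (rows, by role) in the 3 populations at 24 h and 12 d (columns); the colour gives the log2 change, a filled dot marks a gene past the threshold without the replicate block, an open dot one past it only with the block, and grey a gene not tested. Filled dots are absent at 24 h, and at 12 d C56BL6 mice have 24, wild mice 1 and A. cahirinus 14.

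Among the adhesive glycoproteins of C56BL6 mice, 1 of 15 rose and 6 fell at 12 d. Vtn, vitronectin, a cell-adhesion protein of plasma and matrix, measured 0.882, 4.46, 14.9 and 22.01 CPM in untreated cells and 0, 0.0269, 0.255 and 0.276 CPM after 20 Gy (log2 change -6.19 ± 1.23, adjusted p = 0.00942). All 4 irradiated values lay below all untreated ones, with 21 counts in all after 20 Gy and 1281 before. Postn, which binds collagen and integrins, fell from 2073, 2954, 1950 and 1635 to 504, 230, 307 and 276 CPM (-2.71 ± 0.29, adjusted p = 0.00129), again with no overlap. Thbs3 (-1.42), Matn2 (-2.08), a filament-forming matrilin, Sparc (-0.66) and Ecm2 (-1.66) also fell on the log2 scale, and Ecm1 rose from 488, 516, 497 and 555 to 825, 1141, 957 and 1078 CPM (0.96 ± 0.12, adjusted p = 0.00219). Fn1, the adhesive glycoprotein that fibroblasts assemble into fibrils, measured 4292, 6404, 6079 and 7195 CPM untreated and 6283, 9690, 7874 and 8235 CPM after 20 Gy and overlapped; it passed only with the block (0.43 ± 0.13, adjusted p = 0.0343). Tnc, tenascin C, measured 1431, 1159, 1253 and 942 CPM untreated and 1600, 1552, 1587 and 1441 CPM after 20 Gy and likewise passed only with the block (0.38 ± 0.1, adjusted p = 0.0214). Thbs1, the most abundant member per kb, measured 17640, 19520, 18020 and 18140 CPM untreated and 16690, 22000, 23340 and 24220 CPM after 20 Gy and did not pass in either fit (0.23 ± 0.25, adjusted p = 0.517).

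Tnn, tenascin N (tenascin W), an adhesion protein of bone and dense stroma, was the member that fell most in A. cahirinus. It measured 653, 227, 802 and 956 CPM in untreated cells, 95.5, 27.2, 231 and 219 CPM after 10 Gy and 7.76, 5.23, 13.7 and 33.3 CPM after 20 Gy, and all 4 values at 20 Gy lay below all untreated ones (-5.46 ± 0.74, adjusted p = 0.00125). In C56BL6 mice the same gene was at 100.3, 1.87, 2.59 and 10.3 CPM untreated and 4.11, 0.754, 0.764 and 0.728 CPM after 20 Gy, lower in 4 of 4 pairs with replicate 1 highest in both groups, and passed only with the block (-3.32 ± 0.59, adjusted p = 0.00475). In wild mice it was at 30.3, 243, 0.3 and 23.01 CPM untreated and 7.29, 6.58, 0.217 and 7.25 CPM after 20 Gy (-2.79 ± 0.69, adjusted p = 0.0386 with the block), with replicate 3 under 0.5 CPM in both groups. Postn stayed between 7130 and 13190 CPM in all untreated and 20 Gy libraries of A. cahirinus at 12 d and did not pass (-0.26 ± 0.2, adjusted p = 0.363). Fn1 was lower there, from 9557, 9092, 6719 and 10410 to 5731, 8106, 5869 and 5333 CPM (-0.52 ± 0.17, adjusted p = 0.0371 with the block). Comp, a cartilage thrombospondin also made by fibroblasts, passed only with the block in both mouse populations (-2.6 ± 0.36, adjusted p = 0.00198 for C56BL6, and -1.34 ± 0.21, adjusted p = 0.0102 for wild mice), where wild replicate 2 held 385 CPM untreated against at most 13.6 CPM in the other replicates. The 6 cartilage and bone genes, with Ibsp at 0 in the untreated cells, summed to 22.05 to 38.96 CPM in untreated and 49.03 to 79.91 CPM in irradiated C56BL6 cells. These sums mostly followed Col2a1 (mean 7.6 and 26.6 CPM) and Sox9 (21.1 and 26.4 CPM), while Sp7 went the other way (3.69 and 2.88 CPM). The part of the cartilage and bone genes was not tested.

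At 12 d after 20 Gy, 3 of the 9 small leucine-rich proteoglycans fell without the block in C56BL6 mice, with a median log2 change of -1.69, and 8 fell and 1 rose with it. In wild mice 1 of 9 fell, with a median of -1.14, and 4 with the block. In A. cahirinus 1 rose and 0 fell, with a median of 0.81, and 4 rose with the block. Podn, podocan, was the clearest case: it measured 203, 466, 343 and 419.8 CPM in untreated C56BL6 cells and 20.4, 47.7, 48.1 and 68.8 CPM after 20 Gy (-2.95 ± 0.4, adjusted p = 0.00242), and 462, 394, 446 and 418 CPM untreated and 56.8, 102.3, 117 and 57.1 CPM after 20 Gy in wild mice (-2.36 ± 0.26, adjusted p = 0.0293), with no overlap in either. The wild call was lost in the merged fit without the block, and in A. cahirinus Podn measured 66.6, 141, 74.7 and 84.6 CPM untreated and 104, 124, 94.8 and 90.5 CPM after 20 Gy, which overlapped (0.18 ± 0.23, adjusted p = 0.598).

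Lum, lumican, which regulates fibril thickness, fell in C56BL6 mice from 5.43, 99.8, 93.3 and 58.2 to 1.28, 4.34, 5.95 and 5.17 CPM (-3.93 ± 0.85, adjusted p = 0.013) and rose in A. cahirinus with the block from 195, 781, 153 and 235 to 492, 1726, 484 and 282 CPM (1.1 ± 0.21, adjusted p = 0.00523). Dcn went from 129.8, 572, 1193 and 702 to 59.9, 231, 246 and 267 CPM in C56BL6 mice, past the threshold only with the block (-1.53 ± 0.18, adjusted p = 0.00119). In A. cahirinus Dcn measured 941, 2588, 817 and 931 CPM untreated and 1098, 3362, 914 and 666 CPM after 20 Gy (0.19 ± 0.58, adjusted p = 0.822), with replicate 2 far above the others in both groups. Prelp, a heparin-binding member that did not fall in either, measured 728, 1318, 1443 and 1537 CPM untreated and 672, 2181, 2453 and 2531 CPM after 20 Gy in C56BL6 mice (0.53 ± 0.17, adjusted p = 0.0434 with the block) and 122, 684, 58.7 and 111 CPM untreated and 397, 1136, 382 and 230.3 CPM after 20 Gy in A. cahirinus (1.54 ± 0.3, adjusted p = 0.00569 with the block). Bgn, biglycan, the highest of the 9 per kb in C56BL6 mice, changed least there among those that fell with the block (-0.5 ± 0.12, adjusted p = 0.0175), and Fmod, fibromodulin, fell with it as well (-1.5 ± 0.25, adjusted p = 0.00413).

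The genes Ecm2, Aspn, Omd and Ogn lie beside each other on mouse chromosome 13, on the + strand of GRCm39, with gaps of 9.6, 14.9 and 15.1 kb between neighbours, and their values are set out together. Ecm2 encodes a leucine-rich repeat glycoprotein, Omd osteomodulin and Ogn mimecan (osteoglycin). In C56BL6 mice at 12 d after 20 Gy, Ecm2 went from 7.34, 7.39, 8.32 and 9.48 to 3.77, 2.34, 2.21 and 2.01 CPM (-1.66 ± 0.22, adjusted p = 0.00238) and Aspn from 387, 166, 103 and 73.5 to 64.5, 18.2, 13.9 and 13.2 CPM (-2.74 ± 0.71, adjusted p = 0.025). Both sets of values were free of overlap. Ogn went from 957, 189, 234 and 122 to 287, 20.6, 27.4 and 23.1 CPM, with replicate 1 highest in each group and lower values in 4 of 4 pairs (-2.6 ± 0.25, adjusted p = 0.000538 with the block), and Omd passed only with the block as well (-1.92 ± 0.23, adjusted p = 0.00118). In wild mice Ecm2 and Ogn fell with the block (-1.54 ± 0.22, adjusted p = 0.00809 and -2.33 ± 0.44, adjusted p = 0.0174), while Aspn at -1.39 and Omd at -0.99 did not pass. In A. cahirinus Omd rose from 1.62, 2.17, 0.759 and 1.38 to 6.23, 5.23, 3.14 and 2.01 CPM (1.48 ± 0.42, adjusted p = 0.029) and Ogn rose with the block, from 119, 224, 61.5 and 127 to 247, 421, 139 and 128 CPM (0.79 ± 0.19, adjusted p = 0.0118); Ecm2 at 0.15 and Aspn at 0.86 did not pass. In the mouse annotation 18.8% of the exonic bases of Ogn and 9.1% of those of Aspn overlap Cenpp on the other strand, and reads were counted without strand, so part of their counts cannot be assigned with certainty.

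The bases before the annotated starts of these neighbours are shown because all 4 genes fell in C56BL6 mice with the block. They are from RefSeq's promoter table (GRCm38.p6), placed on GRCm39 by their own match, 5′ to 3′, with up to 250 bases before the start and no exon bases. The windows are chr13:49658036-49658235 for Ecm2, chr13:49697669-49697918 for Aspn (within the annotated gene, between a first exon of 1 transcript and the start used by the others), chr13:49735688-49735937 for Omd and chr13:49761241-49761348 for Ogn. Capitals mark matches on either strand to TATAAA (called the TATA box), to CCAAT (a box bound by the NF-Y factor), to GGGCGG (known as the GC box) or to TGANTCA (the usual AP-1 element).
Ecm2: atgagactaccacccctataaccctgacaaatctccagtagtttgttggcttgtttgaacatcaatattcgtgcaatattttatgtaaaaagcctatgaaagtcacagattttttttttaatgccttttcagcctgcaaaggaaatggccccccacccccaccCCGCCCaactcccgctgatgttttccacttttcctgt
Aspn: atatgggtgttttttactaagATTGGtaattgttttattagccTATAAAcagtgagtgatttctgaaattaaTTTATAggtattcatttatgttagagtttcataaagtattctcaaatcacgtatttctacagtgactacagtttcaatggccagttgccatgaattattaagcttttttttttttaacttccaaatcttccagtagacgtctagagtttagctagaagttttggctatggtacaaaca
Omd: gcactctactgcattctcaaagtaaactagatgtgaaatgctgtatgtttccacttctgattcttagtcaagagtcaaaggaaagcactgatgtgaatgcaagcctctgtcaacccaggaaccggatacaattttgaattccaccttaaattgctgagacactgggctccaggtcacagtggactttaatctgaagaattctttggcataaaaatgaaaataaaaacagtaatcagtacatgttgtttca
Ogn: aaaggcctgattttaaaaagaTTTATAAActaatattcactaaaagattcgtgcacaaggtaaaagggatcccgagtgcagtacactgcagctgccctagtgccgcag
Aspn held 2 TATA box matches and 1 CCAAT box match, Ogn held a TATA box match on both strands in overlapping letters, Ecm2 held 1 GC box match on the reverse strand, and no match to these letters was found in the Omd window. Counted from the RefSeq start, the TATA box letters began at -207 and -178 in Aspn and at -229 and -227 in Ogn. The CCAAT box of Aspn began at -229 and the GC box of Ecm2 at -87. The windows of Ecm2 and Ogn lack the 50 and 142 bases next to that start, so matches there were not looked for. Over all 32851 promoters of the table, in the 250 bases before the start on both strands, 12.4% held a TATA box match, 33.8% a CCAAT box, 32.7% a GC box and 6.75% an AP-1 match. Of the 38 members that the table covers, 7 held the first, 15 the second, 21 the third and 3 the last. Members were counted per gene, with a match in any promoter of the gene, while the shares are per promoter. The 2 measures are therefore not alike, and no excess is read from them. A match describes these letters and is not a site that was measured.

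**Figure D2:**
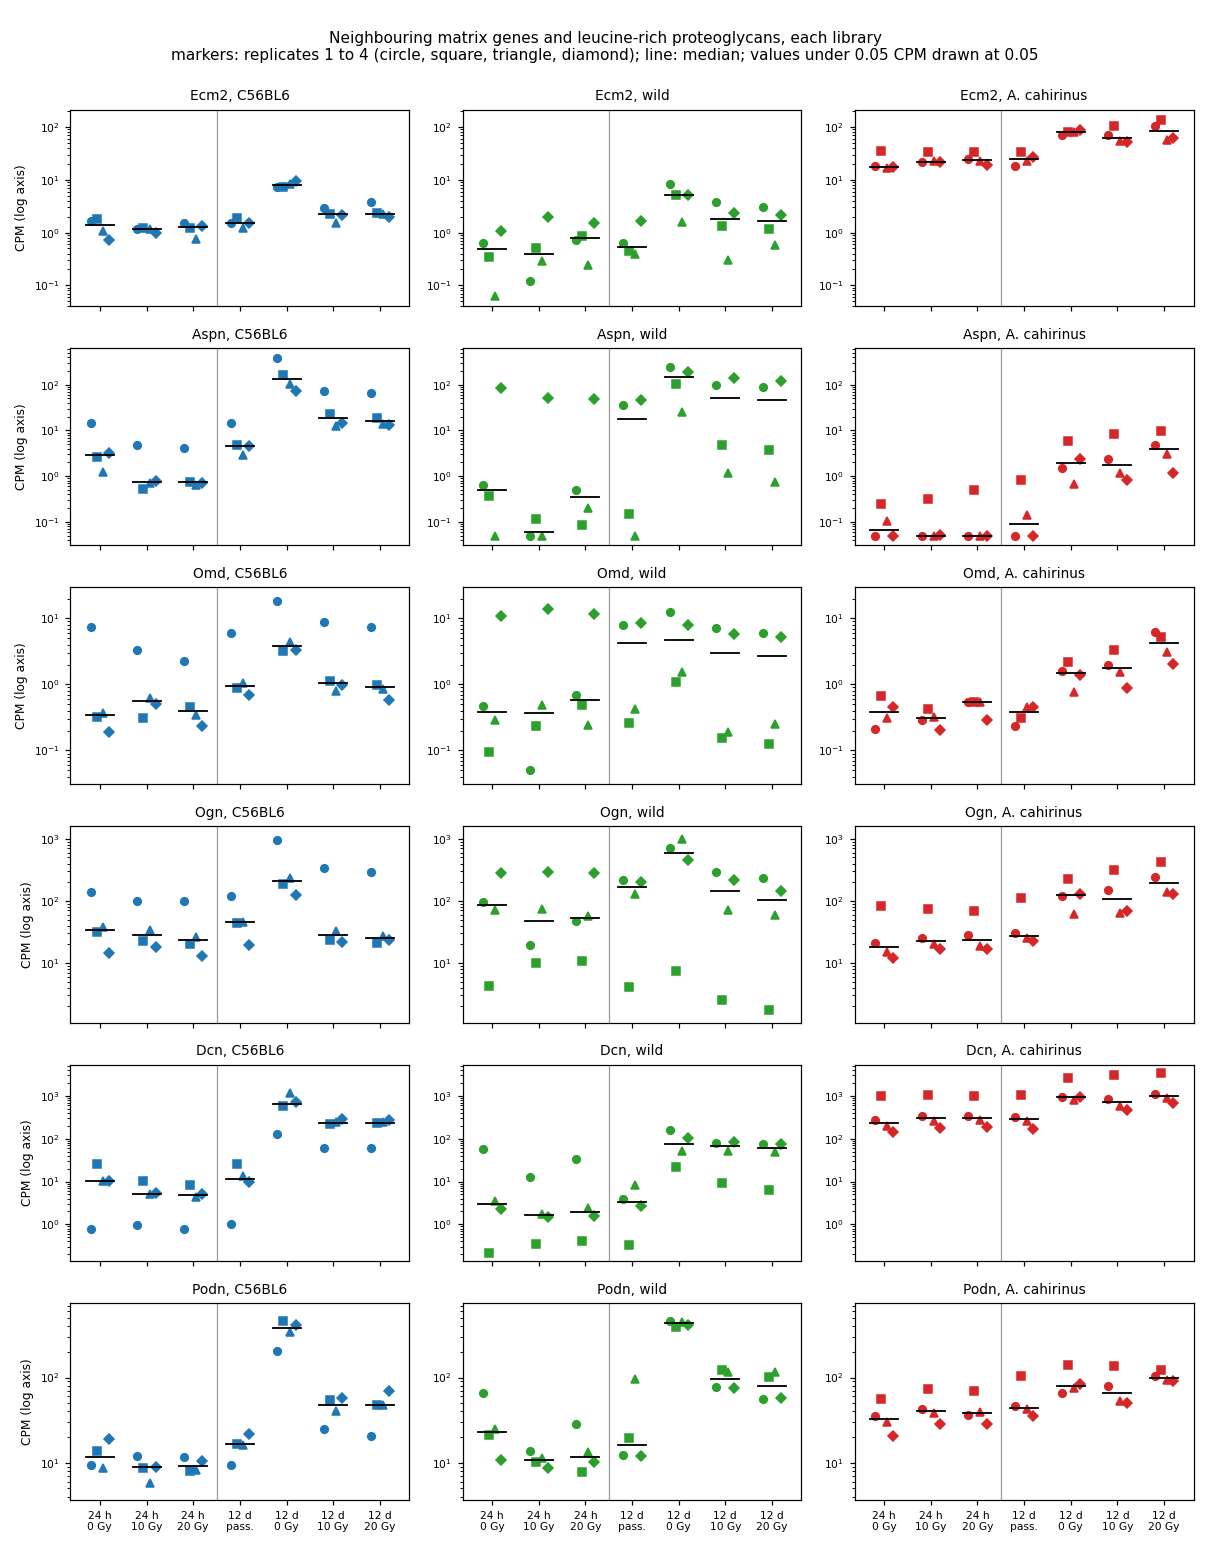
CPM per library (log axis, points; values under 0.05 are drawn at 0.05) of Ecm2, Aspn, Omd, Ogn, Dcn and Podn in all 7 groups of each population, with the group on the horizontal axis. Among the 12 d groups of C56BL6 mice the untreated cells sit highest and the passaged cells lowest for Podn, Dcn and Aspn, and in A. cahirinus at 12 d the 20 Gy cells overlap the untreated ones.

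The hyalectans and hyaluronan synthases changed little in common. Vcan, the large hyaluronan-binding proteoglycan of the dermis, fell in A. cahirinus from 118, 113, 153 and 183 to 50.6, 42.7, 66.2 and 71.8 CPM (-1.29 ± 0.21, adjusted p = 0.00294), with no overlap. It measured 224, 337, 679.8 and 731 CPM untreated and 135, 231, 284 and 294 CPM after 20 Gy in C56BL6 mice and 656, 393, 86.4 and 883 CPM untreated and 394, 212, 68.4 and 478 CPM after 20 Gy in wild mice, lower in 4 of 4 pairs of each and past the threshold with the block (-0.96 ± 0.14, adjusted p = 0.00253; -0.7 ± 0.13, adjusted p = 0.0155). Acan, aggrecan, was near or under the level of 3 counts in C56BL6 mice and fell in A. cahirinus from 57.4, 92.2, 29.6 and 99.98 to 14.4, 40.2, 24.9 and 25.8 CPM (-1.41 ± 0.42, adjusted p = 0.0331). Has2 measured 24.9, 31.9, 85.2 and 126 CPM untreated and 16.9, 22.9, 36.7 and 36.4 CPM after 20 Gy in C56BL6 mice, where untreated replicates 3 and 4 stood highest (-1.03 ± 0.22, adjusted p = 0.00965 with the block), and did not pass in the other populations. Has3, another hyaluronan synthase, rose in C56BL6 mice from 0.565, 0.805, 0.328 and 0.747 to 2.17, 1.43, 1.08 and 1.46 CPM, a low level (1.32 ± 0.34, adjusted p = 0.024).

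Of the 14 elastic fibre and microfibril genes, 9 fell and 0 rose in C56BL6 mice, with a median log2 change of -1.0. Mfap4, a microfibril-associated glycoprotein that binds elastin and fibrillin, went from 10.2, 34.9, 36.03 and 29.5 to 0.485, 1.1, 2.15 and 1.83 CPM (-4.3 ± 0.56, adjusted p = 0.00219). Eln went from 131, 100.1, 38.7 and 37.5 to 12.8, 10.5, 8.63 and 10.5 CPM (-2.86 ± 0.44, adjusted p = 0.00358) and Fbn2, the fibrillin of developing microfibrils, from 2.4, 33, 43.7 and 60.6 to 0.314, 2.05, 2.58 and 3.62 CPM (-4.02 ± 0.97, adjusted p = 0.0194). For Mfap4 and Eln no irradiated library reached an untreated one; for Fbn2 replicate 1 was lowest in both groups and its untreated value lay within the irradiated range. Fbln1 (-3.16), Fbln7 (-1.87), Mfap2 (-2.14), Emilin1 (-1.1) and Efemp2 (-0.89), which are fibulins, microfibril glycoproteins and an elastin-associated emilin, also fell on the log2 scale, and Mfap5, a microfibril glycoprotein, fell from 368, 492, 632 and 548 to 169.7, 272, 342 and 335 CPM (-0.86 ± 0.25, adjusted p = 0.0357). Fbn1, the main fibrillin of adult tissue, measured 689.9, 1103, 1154 and 1309 CPM untreated and 391, 775, 911 and 967 CPM after 20 Gy (passing with the block only, -0.53 ± 0.1, adjusted p = 0.00716; 20.1% of its exonic bases overlap another annotated gene), and Fbln5, a fibulin needed for elastic fibre assembly, 519, 995, 761 and 671 CPM untreated and 469.7, 772, 805 and 832 CPM after 20 Gy (-0.03 ± 0.24, adjusted p = 0.936).

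In wild mice 0 of these 14 passed without the block, and 1 rose and 5 fell with it. Eln measured 97.4, 45.7, 106 and 87.5 CPM in untreated wild cells and 11.8, 5.72, 46.3 and 12.2 CPM after 20 Gy, where replicate 3 stood above the other irradiated libraries and overlapped untreated replicate 2 (-2.5 ± 0.32, adjusted p = 0.00657 with the block). Mfap4 measured 17.9, 22.1, 74.1 and 9.81 CPM untreated and 3.36, 2.002, 12.97 and 1.07 CPM after 20 Gy (-2.85 ± 0.2, adjusted p = 0.00216 with the block). Fbn2 was above the level of 3 counts only in wild replicates 1 and 4, at 109.8, 0, 0.0333 and 151 CPM untreated and 16.4, 0, 0 and 29.5 CPM after 20 Gy; at 24 h untreated replicate 1 held 0.404 CPM and replicate 4 held 58.8 CPM.

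In A. cahirinus 2 of 13 elastic fibre genes tested rose and 2 fell, with a median of -0.23: Efemp1, Fbn2, Fbln2 and Fbln1, of which Fbn2 and Fbln1 had fallen in C56BL6 mice. Efemp1 (fibulin 3) rose from 4.33, 24.8, 2.97 and 3.8 to 61.3, 149, 36.1 and 15.4 CPM (2.86 ± 0.91, adjusted p = 0.0422), higher in 4 of 4 pairs, with replicate 2 highest in each group and overlapping the others. Fbn2 rose from 0.372, 1.41, 1 and 0.548 to 3.3, 5.995, 5.67 and 1.39 CPM (2.29 ± 0.55, adjusted p = 0.0148), with replicate 4 irradiated at the level of untreated replicate 2. Fbln2, which links elastic fibres and basement membranes, fell from 1975, 1226, 1679 and 1545 to 226, 345, 210.5 and 292 CPM without overlap (-2.58 ± 0.21, adjusted p = 0.00021), and Fbln1 fell by 0.98 on the log2 scale. Eln was low in these cells, at 2.81, 0.938, 0.345 and 0.922 CPM untreated and 1.77, 0.52, 1.09 and 0.892 CPM after 20 Gy (-0.23 ± 0.61, adjusted p = 0.803), as was Mfap5, at 0.677, 1.88, 0.345 and 0.375 CPM untreated and 0.436, 1.8, 0.346 and 0.112 CPM after 20 Gy. Fbln5 passed with the block, from 342, 682, 348 and 286 to 606, 1028, 550.3 and 399 CPM (0.64 ± 0.09, adjusted p = 0.00139).

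**Figure D3:**
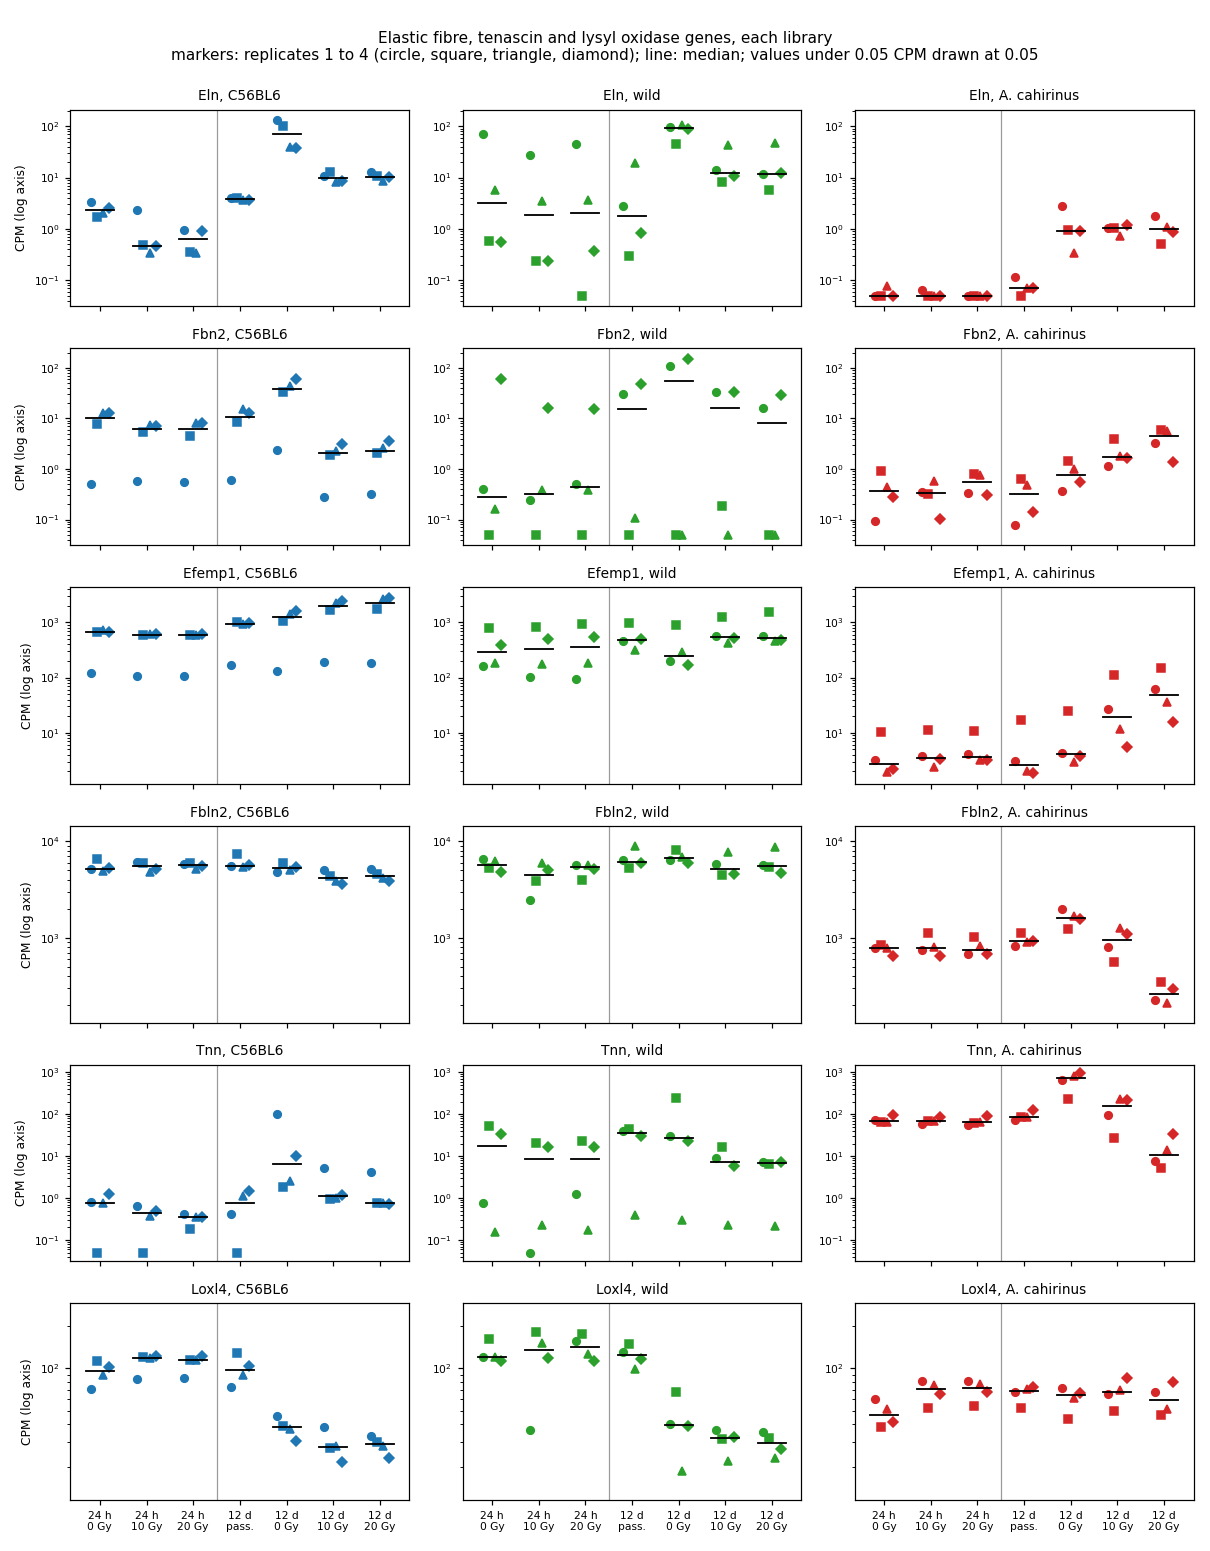
CPM per library (log axis, points; values under 0.05 are drawn at 0.05) of Eln, Fbn2, Efemp1, Fbln2, Tnn and Loxl4 in all 7 groups of each population, with the group on the horizontal axis. At 12 d Fbn2 and Efemp1 lie higher and Fbln2 and Tnn lower with dose in A. cahirinus, while Eln and Fbn2 lie lower after irradiation in C56BL6 mice.

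Of the lysyl oxidases, Loxl1, which acts on elastin, fell in C56BL6 mice from 598, 510, 566 and 538 to 248, 307, 317 and 293 CPM (-0.93 ± 0.11, adjusted p = 0.00162). Loxl2 fell too (-0.41 ± 0.12, adjusted p = 0.0415), with 22.7% of its exonic bases shared with other annotated genes. Lox, the enzyme of collagen and elastin cross-linking that was highest of the 5 per kb, measured 2853, 4309, 4251 and 4002 CPM untreated and 1842, 3463, 4252 and 4042 CPM after 20 Gy in C56BL6 mice (-0.18 ± 0.28, adjusted p = 0.672), 6426, 13990, 5167 and 5297 CPM untreated and 5917, 6500, 7756 and 5583 CPM after 20 Gy in wild mice (-0.26 ± 0.38, adjusted p = 0.826) and 2997, 3849, 2936 and 2373 CPM untreated and 3977, 5143, 3257 and 2558 CPM after 20 Gy in A. cahirinus (0.3 ± 0.24, adjusted p = 0.369). None of these Lox differences passed in either fit, and the groups overlapped in each population. Loxl4 measured 45.5, 38.9, 37.2 and 30.2 CPM untreated and 32.9, 30.1, 28.1 and 23.2 CPM after 20 Gy in C56BL6 mice (-0.41 ± 0.06, adjusted p = 0.00202 with the block). In A. cahirinus no lysyl oxidase passed without the block, and Loxl1 rose with it (0.43 ± 0.12, adjusted p = 0.0206).

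Ltbp3, which binds latent TGF-beta in the matrix, moved in opposite directions in C56BL6 mice and A. cahirinus. It fell in C56BL6 mice from 363, 369, 340.3 and 395 to 234, 320.2, 283 and 295 CPM (-0.37 ± 0.11, adjusted p = 0.0411) and rose in A. cahirinus from 412, 399, 316 and 393 to 678, 526, 657 and 768 CPM (0.79 ± 0.14, adjusted p = 0.00419), without overlap in either. Ltbp4, which also takes part in elastic fibre assembly, fell in A. cahirinus (-1.54 ± 0.18, adjusted p = 0.000647) and was at -0.29 in C56BL6 mice. Ltbp2 measured 295, 744, 471 and 784 CPM untreated and 529.8, 1282, 925 and 922 CPM after 20 Gy in C56BL6 mice, higher in 4 of 4 pairs (0.71 ± 0.13, adjusted p = 0.00592 with the block), and did not pass in the other populations.

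Of the 6 laminins and nidogens, 2 rose and 0 fell in A. cahirinus, and 0 rose and 1 fell in C56BL6 mice. Lama2, the laminin alpha chain of muscle and nerve that fibroblasts also make, went from 14.6, 11.2, 15.1 and 15.8 to 24.2, 16.4, 34.2 and 30.4 CPM (0.89 ± 0.22, adjusted p = 0.0175), and Nid2, a nidogen linking laminin to type IV collagen, rose too (0.84 ± 0.28, adjusted p = 0.0484). In C56BL6 mice Lama4 fell from 229, 158, 314 and 311 to 37.04, 51.03, 129 and 149 CPM (-1.47 ± 0.46, adjusted p = 0.0485), while Lama2 went from 9.53, 74.4, 57.5 and 57.6 to 22.1, 123, 87.6 and 84.4 CPM, with replicate 1 low in both groups (0.76 ± 0.11, adjusted p = 0.00207 with the block). Nid1 measured 1293, 1480, 1831 and 1659 CPM untreated and 1621, 2402, 2824 and 2626 CPM after 20 Gy there (0.58 ± 0.11, adjusted p = 0.00547 with the block) and 180.5, 271, 188 and 282 CPM untreated and 144, 334, 157 and 172 CPM after 20 Gy in A. cahirinus, where it did not pass.

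At 10 Gy the C56BL6 members were counted against the same untreated cells as at 20 Gy: 2 of 57 rose and 22 fell (21.2% of all genes; 8 and 35 with the block, 38.9%). Between 20 Gy and 10 Gy in C56BL6 mice no member of 56 passed in edgeR without the block or with it (0.0 and 0.0647% of all genes), nor in DESeq2, and 0 and 19 had an unadjusted p under 0.05. In A. cahirinus 1 rose and 2 fell of 54 at 10 Gy (2.77% of all genes; 7 and 9 with the block, 27.5%), and none of the 3 calls, Ltbp3, Thbs3 and Ltbp4, held in every fit that left out a replicate. At 20 Gy against 10 Gy in A. cahirinus only Fbln2 passed without the block (0.457% of all genes), at 804, 565, 1264 and 1099 CPM after 10 Gy and the lower values given above after 20 Gy (-1.8 ± 0.28, adjusted p = 0.043). That call was lost without replicate 1, 3 or 4. With the block 9 members were higher and 8 lower at 20 Gy than at 10 Gy (18.1%): Tnn differed by -3.22 ± 0.25, adjusted p = 0.000157, and Efemp1, measured at 26.7, 112, 11.8 and 5.62 CPM after 10 Gy, by 1.14 ± 0.17, adjusted p = 0.00469. In wild mice Podn alone passed at 10 Gy (0.222% of all genes), 1 rose and 16 fell with the block (12.9%), and with replicates 1 and 4 merged 0 passed without the block and 0 rose and 11 fell with it; between the doses only Ogn passed, with the block (0.0 and 0.379% of all genes without and with it).

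In C56BL6 mice the passaged cells, untreated as well, held lower levels of 8 of 9 small leucine-rich proteoglycans and 9 of 14 elastic fibre genes than the untreated cells of the same 12 d series, against 3 of 9 and 1 of 14 in wild mice and 3 of 9 and 4 of 12 tested in A. cahirinus. With the replicate block 9 and 10 were lower in C56BL6 mice, 8 and 9 in wild mice, and 7 and 8 in A. cahirinus. Of 57 members tested, 5 were higher and 29 lower in untreated passaged than in untreated cells (of all genes 49.4% passed, 23.5% upwards and 25.9% downwards), with a median log2 difference of -1.04 for the members and -0.04 for all genes; with the block 11 were higher and 33 lower (60.1%). In all, 24 of the 34 calls held in each fit that left out a replicate. In wild mice 1 of 56 was higher and 6 lower (10.5% of all genes, 5.34% upwards and 5.2% downwards), with the block 4 and 24 (31.8%), and with replicates 1 and 4 merged 0 without the block and 3 and 14 with it. In A. cahirinus 1 of 54 was higher and 17 lower (25.6% of all genes, 11.8% upwards and 13.7% downwards; 10 and 30 with the block, 49.4%), and 7 of the 18 calls held in each fit that left out a replicate. Genes of dividing cells were higher in passaged cells of each population, with summed medians of 872.4 CPM passaged and 102.5 CPM untreated for C56BL6, 795 and 120.7 CPM for wild mice, and 741.6 and 364 CPM for A. cahirinus. In C56BL6 mice the smooth muscle and pericyte genes also summed to 561.6 to 749.9 CPM in passaged and 246 to 360 CPM in untreated cells, and the cartilage and bone genes to 171.7 to 474.6 and 22.05 to 38.96 CPM. These sums mostly followed Cnn1 (mean 429 CPM passaged and 199 CPM untreated) and Col2a1 (320 and 7.6 CPM). Rgs5 (1.08 and 5.05 CPM), Notch3 (36.2 and 55.3 CPM) and Sp7 (2.91 and 3.69 CPM) went against the sums of their lists. The adipocyte genes summed to 0.182 to 0.823 CPM in passaged and 4.833 to 21.58 CPM in untreated C56BL6 cells, with Cidec and Lep at 0 in the passaged cells. In A. cahirinus the passaged and untreated cells differed without overlap in the summed fibroblast genes (18870 to 23750 and 25660 to 29310 CPM), keratinocyte genes (4.43 to 11.03 and 15.83 to 19.83 CPM), adipocyte genes (2.993 to 7.744 and 11.72 to 20.17 CPM) and immune genes (3.733 to 4.709 and 1.242 to 2.227 CPM). These keratinocyte sums mostly followed Trp63 (mean 1.2 CPM passaged and 10.3 CPM untreated). Krt14 was at 1.1 and 1.11 CPM, and Epcam and Krt1 went the other way. The adipocyte sums followed Lep (5.07 and 16.4 CPM). Adipoq (0.0262 and 0.00721 CPM), Plin1 (0.0978 and 0.0332 CPM) and Cidec (0.0445 and 0.00732 CPM) went the other way, near or under the level of 3 counts. Of the 9 fibroblast genes there, 0 were higher and 3 lower in passaged cells without the block, and 0 and 6 with it. The part of the marker lists in the results was not tested.

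Of the small leucine-rich proteoglycans 8 of 9 were lower in passaged C56BL6 cells, with a median of -2.94, and 9 with the block. Lum measured 0.0305, 0.606, 0.524 and 0.454 CPM in passaged cells against 5.43, 99.8, 93.3 and 58.2 CPM in untreated ones (-7.31 ± 1.05, adjusted p = 0.00109). Dcn measured 1.01, 25.9, 13.2 and 9.91 against 129.8, 572, 1193 and 702 CPM (-5.7 ± 1.04, adjusted p = 0.00291), Aspn 14.2, 4.75, 2.84 and 4.54 against 387, 166, 103 and 73.5 CPM (-4.79 ± 0.73, adjusted p = 0.0014), and Podn 9.33, 16.6, 16.1 and 21.5 against 203, 466, 343 and 419.8 CPM (-4.49 ± 0.35, adjusted p = 0.000157). None of these overlapped, and each passaged library was lower than its same-numbered partner. In wild mice Dcn was at 3.9, 0.333, 8.14 and 2.72 against 157, 21.6, 51.3 and 103 CPM (-4.49 ± 0.96, adjusted p = 0.0293) and Podn at 12.2, 19.7, 96.8 and 11.9 against 462, 394, 446 and 418 CPM (-3.66 ± 0.73, adjusted p = 0.0258), with 3 of 9 lower in all, each lost in the merged fit without the block. In A. cahirinus 3 of 9 were lower, with a median of -1.51, led by Aspn at 0.0386, 0.838, 0.14 and 0 against 1.52, 5.77, 0.69 and 2.42 CPM, with overlap (-3.35 ± 1.05, adjusted p = 0.0469); Fmod (0.46 ± 0.09, adjusted p = 0.00318) and Prelp (0.76 ± 0.21, adjusted p = 0.0175) were higher in passaged cells with the block.

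Vtn was at 2 counts in total over the 4 passaged C56BL6 libraries and at 1281 over the untreated ones, so no fold is given (adjusted p = 0.00129). Mfap4 measured 0.0915, 0.182, 0.337 and 0.209 against 10.2, 34.9, 36.03 and 29.5 CPM (-7.08 ± 0.55, adjusted p = 0.000154) and Eln 4.08, 4.09, 3.74 and 3.74 against 131, 100.1, 38.7 and 37.5 CPM (-4.29 ± 0.46, adjusted p = 0.000384), and 9 of 14 elastic fibre genes were lower in all. Comp was lower at 0.0305, 1.21, 0.749 and 0.873 against 0.776, 33.4, 13.7 and 25.6 CPM (-4.68 ± 1.15, adjusted p = 0.0105), with replicate 1 under 1 CPM in both groups. In A. cahirinus Eln had 7 counts over the 4 passaged libraries and 157 over the untreated ones (-4.24 ± 0.84, adjusted p = 0.00896). Tnc was lower there too, at 122, 182, 108.1 and 101.6 against 769.6, 1291, 1095 and 863 CPM (-2.99 ± 0.25, adjusted p = 0.000584), whereas in C56BL6 mice it was at 807, 1129, 1596 and 1432 CPM in passaged cells and did not pass (0.05 ± 0.23, adjusted p = 0.862). The single member that was higher in passaged A. cahirinus cells was Ltbp3, at 751, 653, 623 and 614 against 412, 399, 316 and 393 CPM (0.77 ± 0.11, adjusted p = 0.00259). Higher in passaged C56BL6 cells were Loxl4, at 73.9, 129, 89.5 and 104 against 45.5, 38.9, 37.2 and 30.2 CPM (1.38 ± 0.19, adjusted p = 0.000877), Loxl3, at 566, 678, 424 and 539 against 274, 249.7, 211 and 236 CPM (1.18 ± 0.15, adjusted p = 0.00072), and Nid1, Ecm1 and Lamc1. Loxl4 was also the one member higher in passaged wild cells, at 130.4, 148, 98.5 and 116 against 40.4, 67.8, 18.6 and 38.6 CPM (1.54 ± 0.36, adjusted p = 0.0358), a call lost without replicate 1 or 4 and in the merged fit.

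Set against the passaged cells, irradiated cells held more mRNA of several small leucine-rich proteoglycans. At 20 Gy against passaged, 12 of 56 members were higher and 9 lower in C56BL6 mice (41.8% of all genes, 18.9% upwards and 23% downwards; 19 and 19 with the block, 56%). In wild mice 2 of 56 were higher and 2 lower (10.6% of all genes, 3.7% upwards and 6.85% downwards; 21 and 11 with the block, 37.7%; with replicates 1 and 4 merged 0, and with the block as well 17 and 10). In A. cahirinus 19 of 55 were higher and 8 lower (42.5% of all genes, 18.4% upwards and 24.1% downwards; 28 and 13 with the block, 56.2%). The comparisons with untreated and with passaged cells share the 20 Gy libraries. Of the 9 small leucine-rich proteoglycans 5 were higher and 0 lower in C56BL6 mice, with a median of 1.5, and 4 and 0 in A. cahirinus, with a median of 1.76. With the values per library given above, Dcn differed by 3.97 ± 0.85, adjusted p = 0.00654 and Lum by 3.33 ± 0.7, adjusted p = 0.0061 in C56BL6 mice. In wild mice Dcn measured 74.95, 6.42, 49.8 and 76.8 CPM after 20 Gy, against 0.333 to 8.14 CPM in passaged cells, with overlap (3.81 ± 0.98, adjusted p = 0.0457). Prelp measured 1950, 2689, 2221 and 1276 CPM in irradiated and 1047, 691, 802 and 796 CPM in passaged wild cells, without overlap (1.31 ± 0.25, adjusted p = 0.0165). Aspn measured 4.86, 9.94, 3.09 and 1.17 CPM in irradiated A. cahirinus cells, all above the passaged ones (4.19 ± 1.05, adjusted p = 0.0129). Eln was higher in irradiated than in passaged cells of C56BL6 mice (1.39 ± 0.14, adjusted p = 0.000158) and of A. cahirinus, where it had 147 counts against 7 (4.0 ± 0.64, adjusted p = 0.00174). In A. cahirinus Fbn2 was higher (3.59 ± 0.68, adjusted p = 0.00374), while Tnn (-2.65 ± 0.54, adjusted p = 0.00551) and Fbln2 (-1.81 ± 0.18, adjusted p = 0.000224) were lower. Of the 5 lysyl oxidases 4 were lower in C56BL6 mice, led by Loxl4 (-1.84 ± 0.18, adjusted p = 0.000172), and in A. cahirinus Loxl1 and Loxl3 were higher. Ltbp1 was lower as well in C56BL6 mice, at 309, 131, 125 and 98.6 CPM irradiated and 590.2, 338, 269.6 and 272 CPM passaged, with overlap (-1.19 ± 0.4, adjusted p = 0.0416). In wild mice Loxl4 was at 35.3, 31.7, 22.9 and 26.9 CPM after 20 Gy, below all passaged values (-2.06 ± 0.19, adjusted p = 0.00462), and Lamc1, a laminin gamma chain, at 205, 248, 201 and 262 CPM irradiated and 410.1, 417, 401 and 444 CPM passaged (-0.85 ± 0.12, adjusted p = 0.00851). Each of the 4 wild calls was lost without replicate 1 and without replicate 4. Tnxb, tenascin X, a large glycoprotein of collagen-rich stroma, was lower in passaged than in untreated C56BL6 cells, at 4.63, 12.02, 9.13 and 7.23 against 14.3, 66.8, 80.05 and 87.4 CPM (-2.91 ± 0.55, adjusted p = 0.00341), and higher in irradiated than in passaged ones (2.47 ± 0.46, adjusted p = 0.00337). Thbs2, an antiangiogenic thrombospondin, was lower in passaged cells of C56BL6 mice (-1.54 ± 0.36, adjusted p = 0.00825) and of A. cahirinus (-1.19 ± 0.19, adjusted p = 0.00364). Sparcl1, a relative of Sparc, was lower at 20 Gy in A. cahirinus against untreated (-0.7 ± 0.19, adjusted p = 0.0236) and against passaged cells (-0.83 ± 0.2, adjusted p = 0.00996). Of the members not yet named, Emilin2 passed only with the block, Lamb1 without it only at 20 Gy against passaged A. cahirinus cells (0.47 ± 0.13, adjusted p = 0.0187), and Has1 only at 10 Gy in C56BL6 mice at 12 d (1.03 ± 0.28, adjusted p = 0.0342).

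**Figure D4:**
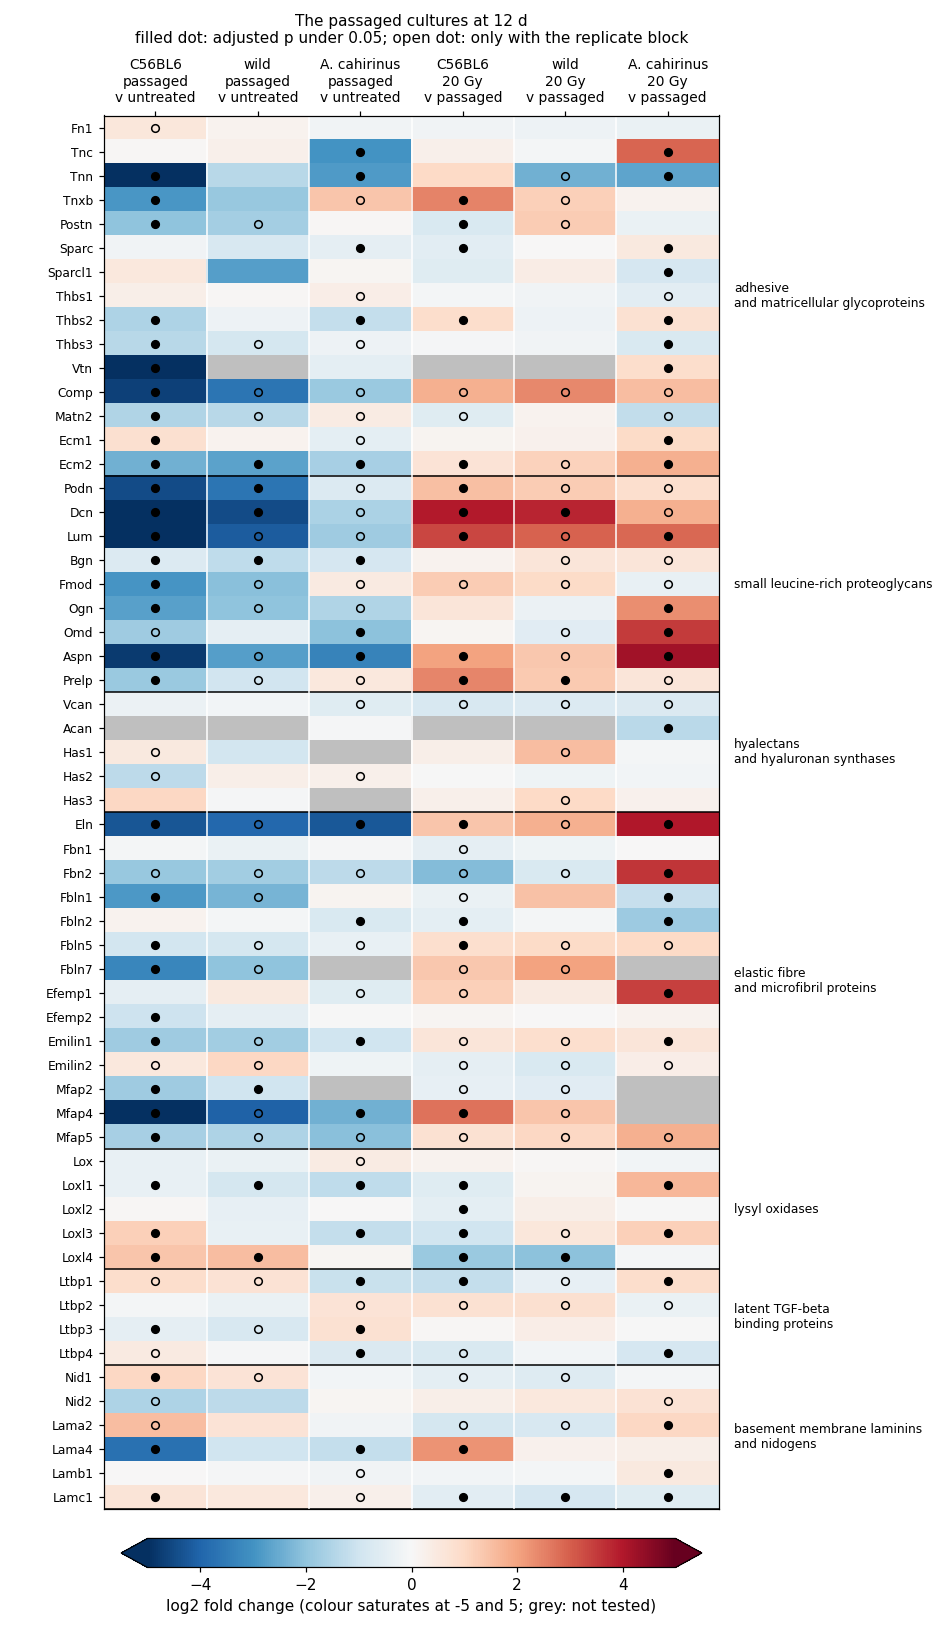
Log2 difference of untreated passaged against untreated cells and of 20 Gy against passaged cells at 12 d for each of the 58 genes (rows, by role) in the 3 populations (columns); colours and dots are as in the heat map of 20 Gy. Over all 58 members, calls that are lower in passaged than in untreated cells number 29 for C56BL6 mice, 6 for wild mice and 17 for A. cahirinus, and the second comparison holds 12, 2 and 19 members that are higher.

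The change at 20 Gy was then tested between populations, as the log2 change in A. cahirinus minus that in mice. At 24 h no member passed against C56BL6 or wild mice without the block (2.1 and 0.0% of all genes; 1 and 0 members at an unadjusted p under 0.05, and 0 and 0 by DESeq2), and with it 22 were higher and 3 lower against C56BL6 mice (16.7%) and 11 and 3 against wild mice (7.36%). At 12 d, 14 of 58 members had a higher change in A. cahirinus than in C56BL6 mice and 4 a lower one (18.5% of all genes; 29 and 8 with the block, 37.7%). Leaving out Fbln7 and Acan, which had few counts in 1 species, the largest differences were those of Vtn (6.61 ± 1.2, adjusted p = 0.00246) and Fbn2 (6.31 ± 1.18, adjusted p = 0.00297), then Lum (5.06), Aspn (3.6), Podn (3.13), Mfap4 (2.96), Eln (2.63) and Postn (2.45). Vtn also had few counts in the irradiated C56BL6 libraries, as given above, and Fbn2 averaged 0.832 CPM in untreated A. cahirinus cells. Low counts therefore limit the size of both differences and their place in this order. Lower in A. cahirinus were Fbln2 (-2.33 ± 0.26, adjusted p = 0.000152), Fn1 (-0.94 ± 0.3, adjusted p = 0.0429) and Lamc1 (-0.51). The counts also include Fbln7, which had 2 counts untreated and 14 after 20 Gy over the A. cahirinus libraries, and Acan, which had 3 and 26 over those of C56BL6 mice; no difference is read from either gene. In all, 7 of the 18 held in each fit that left out a replicate number, those of Postn, Vtn, Ecm2, Podn, Fbln2, Loxl1 and Ltbp3. Against wild mice Podn (2.54 ± 0.36, adjusted p = 0.00461) and Loxl1 (1.13 ± 0.22, adjusted p = 0.0189) were higher and Fbln2 (-2.42 ± 0.32, adjusted p = 0.00417) lower in A. cahirinus (3.26% of all genes; 19 and 4 with the block, 23.2%), each lost without replicate 1 and without replicate 4, and 1 higher and 1 lower passed with wild replicates 1 and 4 merged. The difference of passaged from untreated cells also differed between A. cahirinus and C56BL6 mice for 14 members in the higher and 8 in the lower direction (27.2% of all genes; 23 and 13 with the block, 45%), with Podn at 3.8 ± 0.55, adjusted p = 0.000355, Dcn at 4.11 ± 1.18, adjusted p = 0.0197, Tnc at -3.04 ± 0.35, adjusted p = 0.000107 and Loxl3 at -2.38 ± 0.27, adjusted p = 0.000101.

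**Figure D5:**
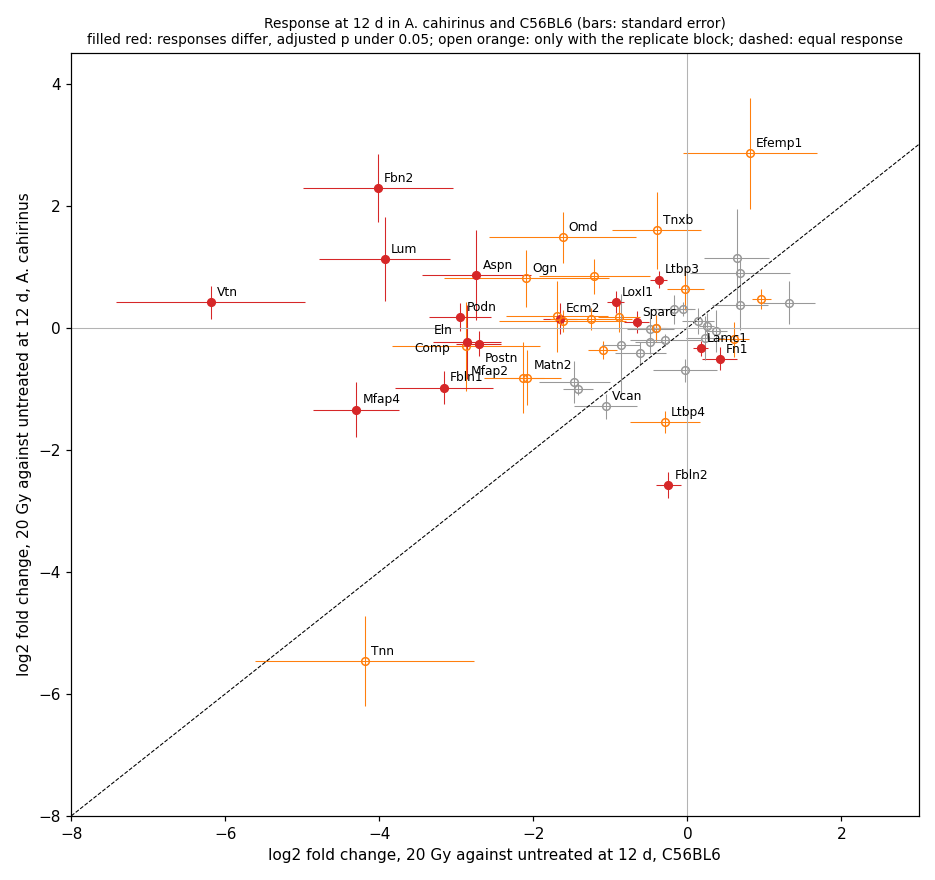
Log2 change at 20 Gy against untreated cells at 12 d in C56BL6 mice (horizontal axis) and A. cahirinus (vertical axis), 1 point per member with its standard errors as bars; red marks members whose changes differed between the populations without the replicate block and orange those that differed only with it. Fbn2 and Vtn lie furthest above the diagonal and Fbln2 below it.

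Untreated wild and C56BL6 cells differed in 3 members at 24 h and 1 at 12 d, where DESeq2 called 12 and 9, without a share of all genes to set beside its counts. At 24 h Lama4 (119, 134, 109 and 177 CPM in wild and 15.1, 5.9, 23.96 and 32.3 CPM in C56BL6 mice, 2.87 ± 0.47, adjusted p = 0.012) and Ltbp2 (1599, 1423, 1206 and 1289 and 230.5, 623, 573 and 611 CPM, 1.5 ± 0.3, adjusted p = 0.0273) were higher and Loxl3 (-1.3 ± 0.29, adjusted p = 0.0418) lower in wild mice, of 55 tested (5.72% of all genes). At 12 d only Loxl1 passed, of 57 tested (2.9% of all genes), at 789, 763, 760 and 831 CPM in wild and 598, 510, 566 and 538 CPM in C56BL6 mice (0.6 ± 0.12, adjusted p = 0.0333), and it was lost with wild replicates 1 and 4 merged. None of the 4 calls held in every fit that left out a replicate. Wild libraries of 1 group differed widely: untreated Postn at 24 h was at 416, 615, 8.77 and 5577 CPM, Ltbp1 at 647, 101.7, 1601 and 74.8 CPM and Aspn at 0.64, 0.377, 0 and 84.1 CPM.

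Other genes of the same matrix pathways, from lists that were written down beside the members, are given for 12 d after 20 Gy beside the 26.7% of all genes that passed in C56BL6 mice and the 31.8% in A. cahirinus. Of further matrix glycoproteins and proteoglycans 7 rose and 9 fell of 41 tested in C56BL6 mice, and 8 rose and 7 fell of 50 in A. cahirinus. The largest falls were those of Cilp, a cartilage intermediate layer protein, from 16.3 ± 7.51 (SD) to 1.997 ± 0.993 CPM in C56BL6 mice (edgeR log2 change -3.02 ± 0.45, adjusted p = 0.00331), and Tgfbi, a TGF-beta-induced adhesion protein, from 415 ± 206 (SD) to 75.5 ± 50.1 CPM in A. cahirinus (-2.46 ± 0.58, adjusted p = 0.0137). Of enzymes that build glycosaminoglycan chains 2 rose and 12 fell of 36 in C56BL6 mice and 8 rose and 7 fell of 37 in A. cahirinus; the sulfotransferase Hs6st1 fell in C56BL6 mice (-1.34 ± 0.11, adjusted p = 0.000692), the epimerase Dse fell in A. cahirinus (-1.23 ± 0.22, adjusted p = 0.00387), and the sulfotransferase Chst7 rose in both (1.72 ± 0.39, adjusted p = 0.0148; 2.37 ± 0.41, adjusted p = 0.00372). Of hyaluronan binding and turnover genes 2 rose and 1 fell of 11 in C56BL6 mice and 2 and 2 of 10 in A. cahirinus, where the receptor Cd44 rose (0.89 ± 0.26, adjusted p = 0.0315) and Hmmr, which is also a spindle protein of dividing cells, fell (-3.42 ± 0.26, adjusted p = 0.000152). Of integrins and other matrix receptors 2 rose and 4 fell of 28 in C56BL6 mice, with the largest fall in the collagen-binding Itga1 (-1.81 ± 0.29, adjusted p = 0.00441), and 7 rose and 6 fell of 29 in A. cahirinus, with the largest rise in Itga2, another collagen receptor (2.39 ± 0.62, adjusted p = 0.0193). Of TGF-beta ligands, receptors and SMADs 3 rose and 2 fell of 23 in C56BL6 mice and 8 and 2 of 23 in A. cahirinus, with the inhibitory Smad7 higher in both (1.27 ± 0.23, adjusted p = 0.00608; 1.16 ± 0.35, adjusted p = 0.0366). In wild mice, with the block, 4 of the further matrix glycoproteins rose and 9 fell of 37, where 16.2% of all genes passed.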

How the data were processed

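Bulk RNA-seq of 84 fibroblast libraries was used. The authors deposited raw counts per gene from featureCounts 2.0.3, per the file headers: the 2 mouse populations by gene ID on GRCm39 with Ensembl annotation, A. cahirinus by gene name on its own assembly, with only properly paired reads kept and no option for strand or for reads with several positions. The gene lengths in bases are also per the file headers. Trim Galore and HISAT2 are named, without versions, in the submitters' processing notes.

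Genes with a symbol entered the fits. The test was edgeR 4.0.16 (R 4.3.3), quasi-likelihood, with TMM, its default expression filter and Benjamini-Hochberg adjustment over all genes tested at 0.05; DESeq2 1.42.0 was an alternative, beside RLE size factors, no filter, a replicate block and leaving out each replicate number. Interaction terms compared populations on the 18109 symbols found once in each table. The scripts were tested on simulated counts. Where labels do not say that libraries came from separate animals, p-values measure only the spread between libraries.

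Replicate numbers share a code in the library names across groups: over 21 comparisons, deviations of same-numbered libraries correlated at 0.58 to 0.93 on average, with 0.41 as the lowest pair, and those of other numbers at -0.3 to -0.11. Blocked values are therefore given where they change a call.

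Members and lists were chosen with earlier results of these data known. Values per library are given for 22 members that stand for the roles and, in each comparison, for the top 2 risers and top 2 fallers past the threshold; of the other pathway genes, those with the largest rise or fall per list may be named. Figures were drawn with matplotlib 3.10.9.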

Additional observations from a re-analysis of the deposited data

Results flagged for a closer look

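In all, 264 groups of 4 libraries were tested, over 22 members that stand for each role. Of these, 50 held a library whose gap to its nearest neighbour was above Dixon's 95% critical share of the group's range. Chance gives about 1 in 20 only for independent groups of normally distributed values. Here CPM were tested as such, and the same replicates recurred over members. Some flagged values lay near or under the counting limit given above. Where a gene had no counts in the other libraries of a group, any count was flagged. The 50 groups are therefore not read against the rate of 1 in 20. No explanation was weighed, and values are CPM.

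In C56BL6 mice the library apart was, for Tnn, replicate 1, 100.3 untreated at 12 d and 4.11 after 20 Gy at 12 d, and for Postn, replicate 2, 441 untreated at 24 h, and for Vtn, replicate 2, 0.0301 after 20 Gy at 24 h. It was, for Ogn, replicate 1, 99.7 after 20 Gy at 24 h and 957 untreated at 12 d and 287 after 20 Gy at 12 d, and for Fbln5, replicate 1, 469.7 after 20 Gy at 12 d, and for Mfap4, replicate 4, 0.286 untreated at 24 h. It was, for Mfap5, replicate 1, 90.2 untreated at 24 h, and for Lox, replicate 1, 1232 untreated at 24 h, and for Ltbp2, replicate 1, 230.5 untreated at 24 h. It was, for Lama2, replicate 1, 22.2 untreated at 24 h and 26 after 20 Gy at 24 h.

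In wild mice the library apart was, for Tnn, replicate 2, 243 untreated at 12 d, replicate 3, 0.217 after 20 Gy at 12 d, and for Postn, replicate 4, 5577 untreated at 24 h, replicate 3, 36.9 untreated at 12 d, and for Vtn, replicate 2, 0.282 untreated at 24 h and 35.03 untreated at 12 d and 5.05 after 20 Gy at 12 d, replicate 1, 0.05998 after 20 Gy at 24 h. It was, for Comp, replicate 2, 36.9 untreated at 24 h and 18.1 after 20 Gy at 24 h and 385 untreated at 12 d and 171 after 20 Gy at 12 d, and for Dcn, replicate 1, 57.3 untreated at 24 h and 34.3 after 20 Gy at 24 h, and for Vcan, replicate 4, 847 untreated at 24 h. It was, for Eln, replicate 1, 70.4 untreated at 24 h and 45.2 after 20 Gy at 24 h, replicate 3, 46.3 after 20 Gy at 12 d, and for Fbn1, replicate 3, 669 after 20 Gy at 24 h, and for Lox, replicate 2, 13990 untreated at 12 d. It was, for Loxl4, replicate 2, 162 untreated at 24 h, and for Nid1, replicate 2, 969 after 20 Gy at 24 h, and for Lama2, replicate 2, 135 untreated at 12 d.

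In A. cahirinus the library apart was, for Tnc, replicate 2, 401 untreated at 24 h, and for Thbs1, replicate 2, 23090 untreated at 12 d, and for Comp, replicate 2, 0.933 after 20 Gy at 24 h and 3.24 after 20 Gy at 12 d. It was, for Dcn, replicate 2, 980.2 untreated at 24 h and 2588 untreated at 12 d and 3362 after 20 Gy at 12 d, and for Ogn, replicate 2, 81.5 untreated at 24 h, and for Eln, replicate 3, 0.0786 untreated at 24 h. It was, for Fbln5, replicate 2, 682 untreated at 12 d, and for Nid1, replicate 2, 357 untreated at 24 h and 433 after 20 Gy at 24 h and 334 after 20 Gy at 12 d.

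The log2 change at 20 Gy and 12 d differed between A. cahirinus and C56BL6 mice, as A. cahirinus minus mice in edgeR's interaction term, for Acan (-4.03), Fbln2 (-2.33), Fn1 (-0.94), Postn (2.45), Eln (2.63), Mfap4 (2.96), Podn (3.13), Fbn2 (6.31), Vtn (6.61). Against wild mice it differed for Fbln2 (-2.42), Loxl1 (1.13), Podn (2.54). The difference of passaged from untreated cells differed between A. cahirinus and C56BL6 mice for Tnc (-3.04), Loxl3 (-2.38), Loxl4 (-1.29), Nid1 (-1.15), Postn (2.07), Podn (3.8), Dcn (4.11), Mfap4 (4.68), Lum (5.55), Vtn (8.5); Vtn rests on 2 counts in the passaged C56BL6 cells. These lists hold only the 22 members that stand for each role and the 2 furthest in each direction, where these passed, of 18, 3 and 22 members that differed in all, and nothing is read from Acan, which had 3 counts untreated and 26 after 20 Gy over the C56BL6 libraries.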

How the results depend on the processing

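The values here are numbers of members called in each comparison. With RLE size factors in place of TMM each count stayed within 1.5 times, and no called result changed sign under any alternative run. Without an expression filter the count was, for passaged against untreated at 12 d, 4 against 7 in wild mice, and for untreated wild against C56BL6 at 12 d, 0 against 1. With DESeq2 it was, for 20 Gy against untreated at 24 h, 2 against 0 in C56BL6 mice, 2 against 0 in A. cahirinus, and for 10 Gy against untreated at 24 h, 1 against 0 in C56BL6 mice, 1 against 0 in A. cahirinus, and for 20 Gy against untreated at 12 d, 5 against 1 in wild mice. They were, for 10 Gy against untreated at 12 d, 5 against 1 in wild mice, 6 against 3 in A. cahirinus, and for 20 Gy against 10 Gy at 12 d, 3 against 1 in A. cahirinus, and for passaged against untreated at 12 d, 16 against 7 in wild mice. They were, for 20 Gy against passaged at 12 d, 9 against 4 in wild mice, and for untreated wild against C56BL6 at 24 h, 12 against 3, and for untreated wild against C56BL6 at 12 d, 9 against 1. With the replicate block, used because the numbers pair the libraries, it was, for 20 Gy against untreated at 24 h, 27 against 0 in C56BL6 mice, 10 against 0 in wild mice, 21 against 0 in A. cahirinus, and for 10 Gy against untreated at 24 h, 24 against 0 in C56BL6 mice, 27 against 0 in A. cahirinus, and for 20 Gy against untreated at 12 d, 46 against 24 in C56BL6 mice, 18 against 1 in wild mice, 29 against 14 in A. cahirinus. They were, for 10 Gy against untreated at 12 d, 43 against 24 in C56BL6 mice, 17 against 1 in wild mice, 16 against 3 in A. cahirinus, and for 20 Gy against 10 Gy at 12 d, 1 against 0 in wild mice, 17 against 1 in A. cahirinus, and for passaged against untreated at 12 d, 28 against 7 in wild mice, 40 against 18 in A. cahirinus. They were, for 20 Gy against passaged at 12 d, 38 against 21 in C56BL6 mice, 32 against 4 in wild mice, 41 against 27 in A. cahirinus, and for the difference of the 20 Gy change between A. cahirinus and C56BL6 mice at 24 h, 25 against 0, and for the same difference against wild mice at 24 h, 14 against 0. They were, for the difference of the 20 Gy change between A. cahirinus and C56BL6 mice at 12 d, 37 against 18, and for the same difference against wild mice at 12 d, 23 against 3, and for the difference of the passage effect at 12 d, 36 against 22. With wild replicates 1 and 4 merged, an alternative added after the data were seen, it was, for 20 Gy against untreated at 12 d, 0 against 1 in wild mice, and for 10 Gy against untreated at 12 d, 0 against 1 in wild mice, and for passaged against untreated at 12 d, 0 against 7 in wild mice. They were, for 20 Gy against passaged at 12 d, 0 against 4 in wild mice, and for untreated wild against C56BL6 at 12 d, 0 against 1. With both the block and the merged replicates it was, for 20 Gy against untreated at 12 d, 8 against 1 in wild mice, and for 10 Gy against untreated at 12 d, 11 against 1 in wild mice, and for 20 Gy against 10 Gy at 12 d, 1 against 0 in wild mice. They were, for passaged against untreated at 12 d, 17 against 7 in wild mice, and for 20 Gy against passaged at 12 d, 27 against 4 in wild mice, and for the same difference against wild mice at 12 d, 19 against 3. Leaving out 1 replicate number at a time, with fewer libraries in each fit, gave, for 20 Gy against untreated at 24 h, 0 to 1 in C56BL6 mice, 0 to 1 in A. cahirinus, and for 10 Gy against untreated at 24 h, 0 to 1 in C56BL6 mice, 0 to 2 in A. cahirinus, and for 20 Gy against untreated at 12 d, 10 to 42 in C56BL6 mice, 0 to 2 in wild mice, 6 to 27 in A. cahirinus. They were, for 10 Gy against untreated at 12 d, 6 to 40 in C56BL6 mice, 0 to 2 in wild mice, 0 to 10 in A. cahirinus, and for 20 Gy against 10 Gy at 12 d, 0 to 7 in A. cahirinus, and for passaged against untreated at 12 d, 0 to 20 in wild mice, 9 to 29 in A. cahirinus. They were, for 20 Gy against passaged at 12 d, 11 to 30 in C56BL6 mice, 0 to 11 in wild mice, 14 to 38 in A. cahirinus, and for untreated wild against C56BL6 at 24 h, 1 to 4, and for untreated wild against C56BL6 at 12 d, 0 to 1. They were, for the difference of the 20 Gy change between A. cahirinus and C56BL6 mice at 12 d, 8 to 19, and for the same difference against wild mice at 12 d, 0 to 5, and for the difference of the passage effect at 12 d, 13 to 25. For single members, the block moved 208 values past the threshold and 385 kept their side of it, and DESeq2 moved 45 past it. RLE took 2 back below it and no filter 3. Merging the wild replicates took back 11. Leaving out replicate 1, 2, 3 or 4 took back 30, 26, 39 and 46. The cause of these shifts was not tested, apart from the smaller number of libraries. Levels near 3 counts, such as those of Vtn in C56BL6 mice and of Eln in A. cahirinus, limit what their fold changes can show.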
